A study of Mus musculus with 9 samples.

Results

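The cytosolic ribosomal protein genes were taken from the count table by symbol: Rpl or Rps followed by digits and at most 1 of the letters a, l, x or y, together with Rplp0, Rplp1, Rplp2 and Rpsa. The rule used no measured value and took 81 of 24062 gene symbols, 49 of the large subunit and 32 of the small subunit. Of these, 77 had enough counts to be tested, 45 of the large and 32 of the small subunit, among 12989 genes tested in all. RNA of gastrocnemius, the calf muscle, was sequenced in 9 libraries from 3-month-old mice whose background mixed 129Sve and C57BL/6. The labels do not say whether each library came from a separate animal. The hetX753 group (BubR1+/X753) and the hetL1002P group (BubR1+/L1002P) each carried a single altered copy of Bub1b, the gene of the spindle checkpoint protein BubR1, and the WT group carried none. Each genotype had 3 libraries. The altered copies model alleles of mosaic variegated aneuploidy, a human disorder of chromosome segregation, and are compared here with WT and with each other.

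Ribosomes are built from ribosomal RNA and a set of proteins. Most of these proteins are needed in equal number. Their messenger RNAs begin with a C and a run of pyrimidines, the 5′ terminal oligopyrimidine tract, through which the kinase complex mTORC1 and the RNA-binding protein Larp1 control how strongly they are translated. In striated muscle, Rpl3l, a close relative of the large-subunit protein gene Rpl3, is known to take over much of the part of Rpl3, and ribosome supply is known for its link to growth and wasting of fibres.

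Library totals were 20106833 to 27797765 counts in hetX753, 22795669 to 25712368 in hetL1002P and 19768149 to 33977252 in WT. Bub1b had 8, 8 and 5 counts in hetX753, 10, 9 and 2 in hetL1002P and 21, 11 and 16 in WT. The log2 fold change of Bub1b was -1.21 (SE 0.44) in hetX753 and -1.21 (SE 0.44) in hetL1002P against WT, with adjusted p = 0.177 and 0.579 (edgeR quasi-likelihood test, Benjamini-Hochberg over all genes tested). On the first principal component of all genes, hetL1002P 3 (-32.5) and WT 3 (-47.5) stood away from the remaining libraries, which spanned -9.52 to 28.8. All 16 myofibre markers were counted in every library, with summed levels of 260450 to 284100 CPM (counts scaled to the library total after its TMM adjustment) in hetX753, 272750 to 311830 CPM in hetL1002P and 312160 to 348600 CPM in WT. The 4 haemoglobin genes looked for were listed at 0 in all libraries, and why they were at 0 was not tested. The list of 6 erythroid markers that holds them summed to 4.31 to 11.9 CPM.

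The genes of the ribosome were among the abundant transcripts of this muscle. They held 2.099%, 1.995% and 1.859% of all counts in the hetX753 libraries, 1.903%, 1.752% and 2.15% in the hetL1002P libraries, and 2.056%, 2.177% and 2.457% in the WT libraries. The means were 1.99% ± 0.12 in hetX753, 1.94% ± 0.201 in hetL1002P and 2.23% ± 0.206 in WT (SD, n = 3 each). The lowest value was that of hetL1002P 2 and the highest that of WT 3, and both carriers overlapped WT. Counts in the large-subunit genes were 1.53 ± 0.026 times those in the small-subunit genes in hetX753, 1.49 ± 0.072 times in hetL1002P and 1.46 ± 0.012 times in WT.

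Levels were compared between genes as RPKM, the CPM divided by the transcript length in kilobases, computed with the TMM-scaled library totals. Rplp1, a protein of the flexible stalk that calls elongation factors to the large subunit, had the highest level per length, at 1191 ± 283 RPKM in hetX753, 1099 ± 234 RPKM in hetL1002P and 1336 ± 276 RPKM in WT (SD, n = 3 each). Rps2, which lies near the entry of the messenger RNA channel, averaged 943 RPKM over all libraries. Rps15, near the decoding site, averaged 705 RPKM, and Rplp0, the base of the stalk, 655 RPKM. Rps2 had 911 ± 96.3 RPKM in hetX753, 917 ± 217 RPKM in hetL1002P and 1001 ± 74.8 RPKM in WT. The libraries of Rplp1 and Rps2 overlapped in hetX753 and hetL1002P but not in WT, where Rplp1 had 1138 to 1651 RPKM and Rps2 915 to 1047 RPKM. Those of Rps2 and Rps15 overlapped in hetL1002P and WT but not in hetX753, where Rps2 had 811 to 1003 RPKM and Rps15 566 to 704 RPKM. Those of Rps15 and Rplp0 overlapped in every genotype, as did 66 of the 78 pairs of neighbours in the order of the 79 genes with any count.

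The other end of the order held genes whose counts are uncertain. Rpl26 was listed at 0 in all libraries, and Rpl30 had 2, 5 and 3 counts in hetX753, 5, 3 and 7 in hetL1002P and 10, 7 and 7 in WT. Rps27 averaged 1.399 RPKM and Rpl34 3.43 RPKM. All 4 encode proteins of the ribosome. Of the 50-base stretches of their annotated transcripts, 71.3% in Rpl26, 76.4% in Rpl30, 98.6% in Rps27 and 50.6% in Rpl34 also occurred in other annotated genes, among them processed copies such as Rpl34-ps1 and the gene Rps27rt, which was itself listed at 0. How reads that align to several genes were counted is not given in the sources used here, and whether such copies took these genes' reads was not tested. Shared stretches were common among the ribosomal protein genes at large: 44 of the 77 tested shared more than 50% of theirs, with a median of 53.7%. Rps15a stood at 30.03 RPKM and Rps20 at 77.5 RPKM, with annotated transcripts of 5130 and 3706 bases against a median of 775 bases, so that their levels per length depend on the transcript chosen.

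Second copies and tissue-restricted relatives took very different places. Rpl3l averaged 468 RPKM, Rpl3 36.4 RPKM. Rpl10l and Rpl39l, known from testis, were listed at 0 and at 3 counts or fewer in each library, while Rpl10 averaged 430 RPKM and Rpl39 162 RPKM. Rps4l had 2.86 RPKM beside 357 RPKM for Rps4x, its relative on the X chromosome, and Rps27l, a relative of Rps27 known as a p53 target, had 132 RPKM.

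**Figure D1:**
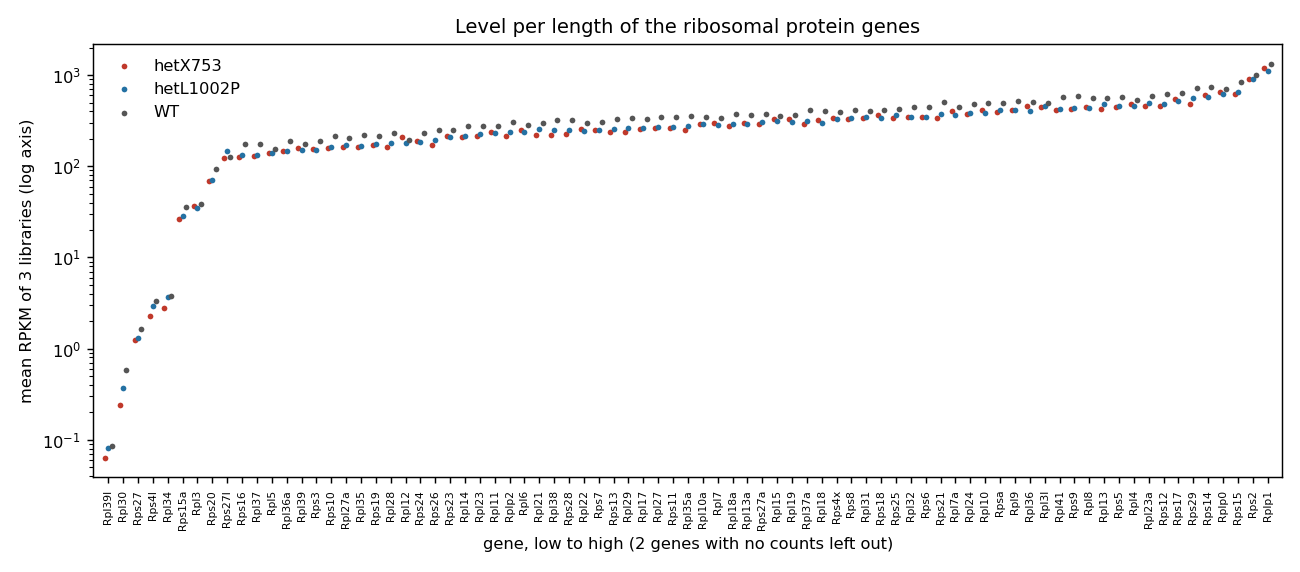
Mean level per length (RPKM, log axis) of the 79 ribosomal protein genes with any count, ordered from low to high, with a point for each genotype (mean of 3 libraries). Most genes lie between Rps20 at 77.5 RPKM and Rplp1 at 1209 RPKM averaged over all libraries, and 7 genes from Rpl39l to Rpl3 lie below them.

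In hetX753 muscle, nearly every ribosomal protein gene stood lower than in WT by a modest amount. Of 77 genes, 76 had a log2 fold change below 0, against 49.6% of all genes tested, and the median was -0.35, or 1.27-fold lower, against 0.003 over all genes. The values ran from -0.57 in Rps21 to 0.12 in Rpl12, with a median SE of 0.17. Small-subunit genes had a median of -0.37 and large-subunit genes one of -0.32.

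No single gene passed the test in this comparison. The edgeR quasi-likelihood test called 0 of the 77, with 0.508% of all genes tested called, and the smallest adjusted p was 0.124. At an unadjusted p under 0.05 there were 26 of the 77, all lower (33.8%), against 9.69% of all genes lower at that p. In 36 of the 77 (46.8%) all 3 hetX753 libraries lay below all 3 WT libraries, against 15.8% of all genes. DESeq2 called 1 gene, Rpl29 (adjusted p = 0.027), where it called 5.08% of all genes, and limma-voom called 0. Without hetL1002P 3, whose values enter this test through the shared spread, edgeR called Rpl29 (adjusted p = 0.0382) and Rpl21 (adjusted p = 0.048), and 5.07% of all genes.

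Rpl29, a small basic protein of the large subunit, had the smallest p. It stood at 175, 174 and 151 CPM in hetX753, 181, 160 and 219 CPM in hetL1002P, and 214, 233 and 279 CPM in WT. Every hetX753 library was below every WT library, while hetL1002P 3 lay among the WT libraries. The log2 fold change in hetX753 was -0.54 (SE 0.15, adjusted p = 0.124), or 1.45-fold lower. Rpl21, also of the large subunit, was at 200, 202 and 186 CPM in hetX753, 217, 190 and 276 CPM in hetL1002P, and 243, 256 and 312 CPM in WT. Its hetX753 libraries were the tightest of these groups and lay below WT throughout, with a log2 fold change of -0.46 (SE 0.15, adjusted p = 0.153).

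Among small-subunit genes, Rps21 and Rps29 were lowest relative to WT. Rps21 stood at 155, 123 and 122 CPM in hetX753, 135, 117 and 195 CPM in hetL1002P, and 168, 186 and 241 CPM in WT. The hetX753 and WT libraries of Rps21 did not overlap, and the log2 fold change was -0.57 (SE 0.20, adjusted p = 0.173). Rps29, a zinc-binding protein of the small-subunit head, had 237, 158 and 176 CPM in hetX753, 204, 173 and 285 CPM in hetL1002P, and 239, 266 and 343 CPM in WT. Its highest hetX753 library nearly reached the lowest WT library (log2 fold change -0.57, SE 0.22, adjusted p = 0.186). Rps26, which contacts the messenger RNA at the exit channel, was at 130, 113 and 108 CPM in hetX753 and 143, 160 and 206 CPM in WT (log2 fold change -0.54, adjusted p = 0.179). Rps15a and Rps16 stood at -0.45 and -0.46, with adjusted p = 0.182 and 0.183.

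In hetL1002P muscle the direction was alike. Of 77 genes, 75 had a log2 fold change below 0 against WT, where 48.1% of all genes did, and the median was -0.32, or 1.25-fold lower, against 0.01 over all genes. Values ran from -0.46 in Rpl18 to 0.19 in Rps27l. Fitted on all 9 libraries, edgeR called 0 of the 77 (0% of all genes), with a smallest adjusted p of 0.579 among ribosomal protein genes. DESeq2 and limma-voom also called 0. At an unadjusted p under 0.05 there were 8 of the 77, all lower (10.4%), against 2.57% of all genes lower and 7.96% in either direction. In 4 of the 77 (5.19%) all hetL1002P libraries lay below all WT libraries, against 3.77% of all genes below and 5.67% above.

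Rpl10, a late-joining large-subunit protein near the peptidyl transferase centre, had the smallest p in hetL1002P. It stood at 286, 283 and 349 CPM in hetL1002P and 355, 373 and 446 CPM in WT, so that no hetL1002P library reached WT (log2 fold change -0.36, SE 0.13, adjusted p = 0.579). Rpl18 had 192, 160 and 250 CPM in hetL1002P and 233, 257 and 340 CPM in WT, with hetL1002P 3 inside the WT range (log2 fold change -0.46, SE 0.19). Rps9, of the small-subunit body, stood at -0.44 and Rpl8, Rpl14 and Rpl32 between -0.36 and -0.37, each with adjusted p = 0.579.

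The result in hetL1002P depended on how replicate numbers were treated. When hetL1002P and WT were fitted alone with a block for the replicate number, edgeR called 27 of the 77 genes (35.1%), all lower, and 5.01% of all genes. When each library was also corrected for length and GC content, the same fit called 0 of the 77 and 0.00788% of all genes, and their median log2 fold change was -0.09, against -0.33 with the block alone. The 27 were 17 large-subunit and 10 small-subunit genes, with log2 fold changes from -0.48 to -0.36 and adjusted p from 0.0333 for Rpl18 to 0.0473 for Rps14. Without the pair of libraries numbered 1 or 2 the fit with the block alone called 0, and without the pair numbered 3 it called 1, Rps20 (adjusted p = 0.049), with 1.75% of all genes called. The block in the fit of all 9 libraries called 0. With the block on hetX753 and WT alone 0 were called as well.

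Between the carriers, hetX753 against hetL1002P, the genes scattered around 0: 46 were below and 31 above, with a median log2 fold change of -0.03. None was called by edgeR (0.115% of all genes), DESeq2 or limma-voom, none had an unadjusted p under 0.05 (4.34% of all genes lower, 3.9% higher and 8.24% in all), and in none did the libraries of the carriers separate (6.98% of all genes below and 7.44% above). Rpl12 had the smallest p, with a log2 fold change of 0.23 (SE 0.12, adjusted p = 0.696). The joint test of the 3 genotypes called 0 of the 77 and 0.216% of all genes. At an unadjusted p under 0.05 it had 5 of the 77, Rpl29, Rpl21, Rps21, Rps16 and Rps15a, against 14% of all genes.

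**Figure D2:**
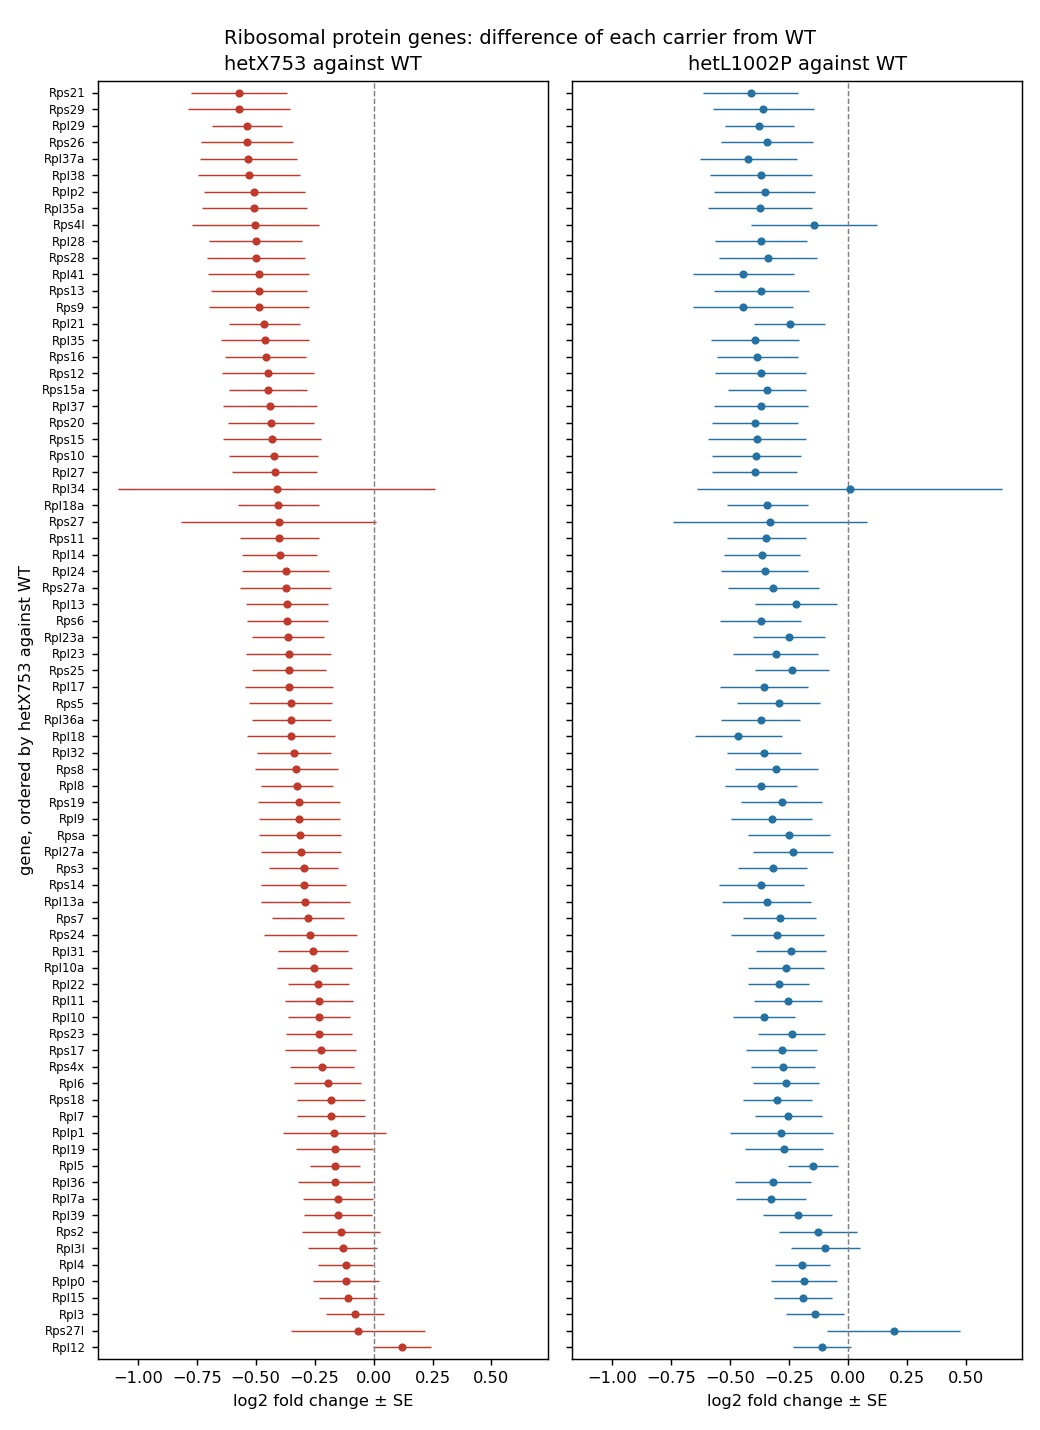
Log2 fold change with its SE for each of the 77 tested genes, in hetX753 against WT (left) and hetL1002P against WT (right), in the order of the hetX753 values. In the left panel 76 of 77 points lie below 0 and in the right panel 75, and none of them passed the edgeR test.

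The size of the difference moved with single libraries. As the median over the 77 genes of the log2 level minus the WT mean, the hetX753 libraries lay at -0.18, -0.33 and -0.46, the hetL1002P libraries at -0.39, -0.56 and -0.02, and the WT libraries at -0.19, -0.08 and 0.27. WT 3 was above the WT mean in 77 of 77 genes, and hetL1002P 3 was above it in 28, against 1 to 7 in each of the other 5 carrier libraries. hetX753 1 and WT 1 lay side by side. Without WT 3 the median fold change was -0.19 in hetX753 and -0.17 in hetL1002P, and without hetL1002P 3 it was -0.50 in hetL1002P. Without both libraries it was -0.18 in hetX753 and -0.33 in hetL1002P, and between the carriers it was 0.13. With library totals as the only scaling, where the median of all genes shifted to 0.12 in hetX753 and 0.10 in hetL1002P, the ribosomal protein genes had medians of -0.22 and -0.23.

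**Figure D3:**
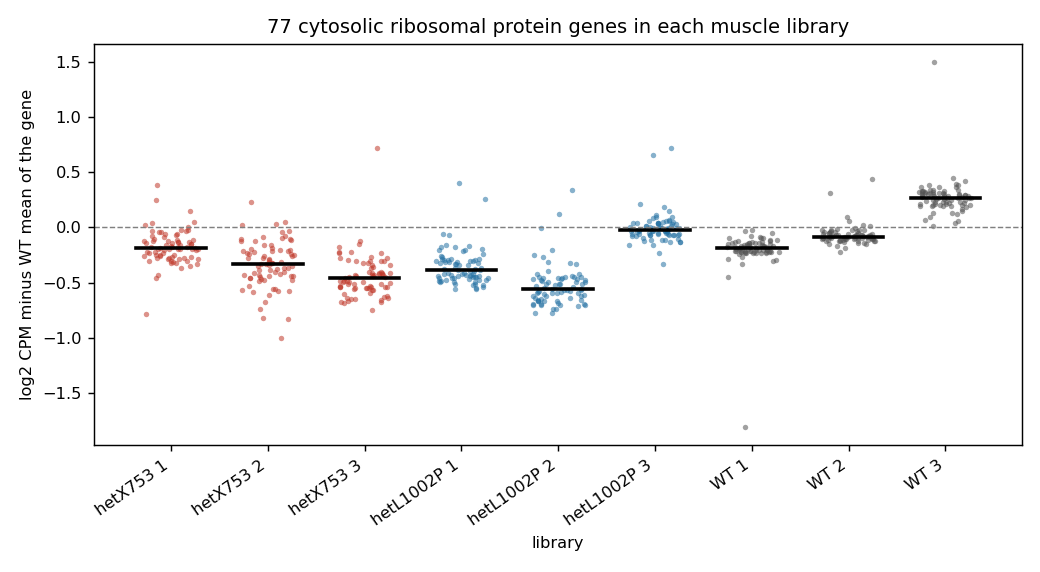
Each point is a ribosomal protein gene (77 per library), given as its log2 CPM minus its mean in WT, and black lines are medians. The medians run from -0.56 in hetL1002P 2 to 0.27 in WT 3, with hetL1002P 3 at -0.02.

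Other genes with short transcripts had values close to these. Ribosomal protein transcripts are short, and the 813 other tested genes with transcripts up to 1000 bases had a median log2 fold change of -0.34 in hetX753 and -0.28 in hetL1002P against WT. In hetX753, 81.9% of them were below 0, 29.5% were lower at an unadjusted p under 0.05, and 38.4% had all 3 libraries below WT. In hetL1002P, 85.9% were below 0, 9.1% were lower at an unadjusted p under 0.05, and 5.9% had all 3 libraries below WT. By library, the medians of these short genes were -0.23, -0.31 and -0.46 in hetX753, -0.38, -0.51 and 0.03 in hetL1002P, and -0.17, -0.10 and 0.27 in WT.

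The median over other genes climbed with transcript length. It was -0.18 in hetX753 and -0.16 in hetL1002P for 1000 to 2000 bases, 0.006 and 0.007 for 2000 to 4000 bases, and 0.21 and 0.22 above 4000 bases. Other genes averaging at least 100 CPM had medians of -0.07 in hetX753 and -0.05 in hetL1002P, and the 116 of them with transcripts up to 1000 bases had -0.42 and -0.31. With a trend on length and GC content removed from each library, the median of the ribosomal protein genes was -0.09 in hetX753, with 53 of 77 below 0, and -0.09 in hetL1002P, with 63 below 0, and 0 were called in either. What made levels vary with transcript length between libraries was not tested.

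**Figure D4:**
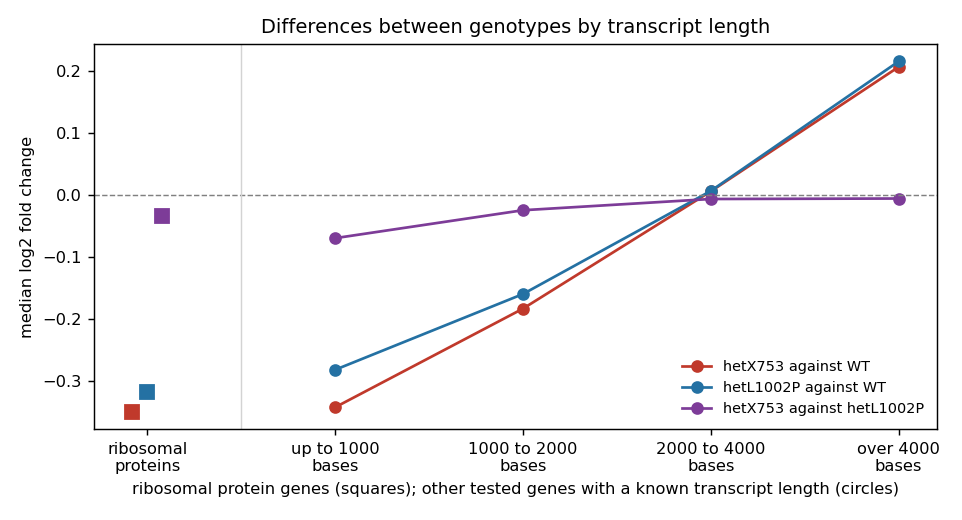
Median log2 fold change of the 77 ribosomal protein genes (squares) and of other tested genes with a known transcript length, in 4 length classes (circles, 813 to 5034 genes each; 553 of 12912 other genes had no length), for each comparison of genotypes. Against WT the squares, at -0.35 and -0.32, lie beside the shortest class, at -0.34 and -0.28, and the classes climb to 0.21 and 0.22 above 4000 bases.

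Among the ribosomal protein genes themselves the medians lay closer together, but most of these genes covered a narrower range of lengths. Their median transcript had 775 bases and their classes were cut at 600 and 1000 bases. The classes of other genes reached above 4000 bases. Whether the relation to length was weaker in ribosomal protein genes over a like range was not tested. The 23 genes with transcripts up to 600 bases had a median of -0.40 in hetX753 and -0.36 in hetL1002P, the 34 above that and up to 1000 bases -0.35 and -0.32, and the 20 longer ones -0.29 and -0.28. Across the 77 genes, as a description, the Pearson correlation of log2 length with the fold change was 0.234 in hetX753 and 0.12 in hetL1002P. The rank correlation was 0.297 in hetX753 and 0.26 in hetL1002P. These genes share libraries, and WT enters the values of both carriers. Within genotypes, Rpl5, which with Rpl11 binds the 5S ribosomal RNA, and Rpl4, which lines the exit tunnel, varied least, with SDs of 0.088 and 0.113 on the log2 scale. Rpl34, at 10 to 75 counts, and Rps27l varied most, with SDs of 1.06 and 0.443.

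Among the tested genes, Rpl12 alone had a log2 fold change above 0 in hetX753. Rpl12, at the base of the stalk, was at 287, 284 and 218 CPM in hetX753, 232, 210 and 230 CPM in hetL1002P, and 236, 240 and 249 CPM in WT. hetX753 1 and 2 were above every WT library and hetX753 3 was below them, so the groups overlapped. Its log2 fold change was 0.12 (SE 0.12, adjusted p = 0.581) in hetX753 and -0.11 (SE 0.12, adjusted p = 0.724) in hetL1002P. Exons of Rpl12 overlap Lrsam1 on the other strand, and the libraries do not mark strand, so that reads of the overlap cannot be told apart. The same limit holds for others: 17 of the tested genes have such an overlap, Rpl12, Rpl18, Rpl28 and Rpl32 among them.

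The stalk proteins had unlike values. Rplp2 was at 236, 195 and 185 CPM in hetX753, 201, 178 and 308 CPM in hetL1002P, and 249, 265 and 363 CPM in WT. Every hetX753 library was below WT, with a log2 fold change of -0.51 (SE 0.21, adjusted p = 0.219). In hetL1002P it was -0.35 (SE 0.21, adjusted p = 0.579). With the block on hetL1002P and WT alone it was -0.38 (edgeR, adjusted p = 0.0457). Its partner Rplp1 was at 727, 610 and 446 CPM in hetX753, 582, 418 and 645 CPM in hetL1002P, and 568, 609 and 824 CPM in WT. The groups of Rplp1 overlapped, with log2 fold changes of -0.17 (SE 0.22) and -0.28 (SE 0.22). Rplp0, which anchors both, stood at -0.12 (SE 0.14) in hetX753 and -0.19 (SE 0.14) in hetL1002P, and with library totals as the only scaling at 0.01 in hetX753. Rpsa, a small-subunit protein also known as a laminin-binding protein, stood at -0.31 (SE 0.17) and -0.25 (SE 0.17). Rpsa had 684, 674 and 531 CPM in hetX753, 627, 530 and 816 CPM in hetL1002P, and 688, 765 and 892 CPM in WT.

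The muscle paralogue Rpl3l stood nearer to WT than the median gene in both carriers. It had 626, 653 and 576 CPM in hetX753, 595, 544 and 764 CPM in hetL1002P, and 632, 625 and 774 CPM in WT. The groups overlapped, with log2 fold changes of -0.13 (SE 0.15, adjusted p = 0.621) in hetX753 and -0.09 (SE 0.15, adjusted p = 0.801) in hetL1002P. Rpl3 had 47.1, 52.3 and 47.4 CPM in hetX753, 45.9, 51.1 and 43.7 CPM in hetL1002P, and 44.0, 55.1 and 56.2 CPM in WT, with log2 fold changes of -0.08 (SE 0.12) and -0.14 (SE 0.12). With library totals as the only scaling Rpl3 stood at 0.05 in hetX753.

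Per library the ratio of Rpl3l to Rpl3 counts was 13.29, 12.49 and 12.16 in hetX753, 12.95, 10.64 and 17.46 in hetL1002P, and 14.37, 11.35 and 13.78 in WT. On the log2 scale it averaged 3.66 ± 0.0659 in hetX753, 3.74 ± 0.36 in hetL1002P and 3.71 ± 0.182 in WT (SD, n = 3 each). The difference from WT was -0.05 in hetX753 (exact two-sided permutation p = 0.7) and 0.03 in hetL1002P (exact two-sided permutation p = 1), both at 1 after adjustment over the 2 comparisons. With 3 libraries against 3 the smallest p this test can give is 0.1. Of Rpl3's 50-base stretches 85.6% occurred in other annotated genes and of Rpl3l's 0%, so that the ratio depends on how shared reads were counted.

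Rps27l varied widely between libraries of the same genotype. It had 82.8, 52.7 and 47.2 CPM in hetX753, 75.5, 44.2 and 99.5 CPM in hetL1002P, and 58.4, 57.2 and 75.9 CPM in WT. The groups overlapped throughout, with log2 fold changes of -0.07 (SE 0.28, adjusted p = 0.911) in hetX753 and 0.19 (SE 0.28, adjusted p = 0.786) in hetL1002P, and with library totals as the only scaling 0.05 in hetX753. Rps4l, at 1.48 to 3.46 CPM, stood at -0.50 (SE 0.27) and -0.14 (SE 0.27). Rpl34 stood at -0.41 (SE 0.67) and 0.01 (SE 0.65), on 19, 32 and 45 counts in hetX753, 42, 44 and 44 in hetL1002P, and 10, 30 and 75 in WT. In both carriers the sign of Rps27l, and in hetL1002P those of Rps4l and Rpl34, changed with the processing.

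**Figure D5:**
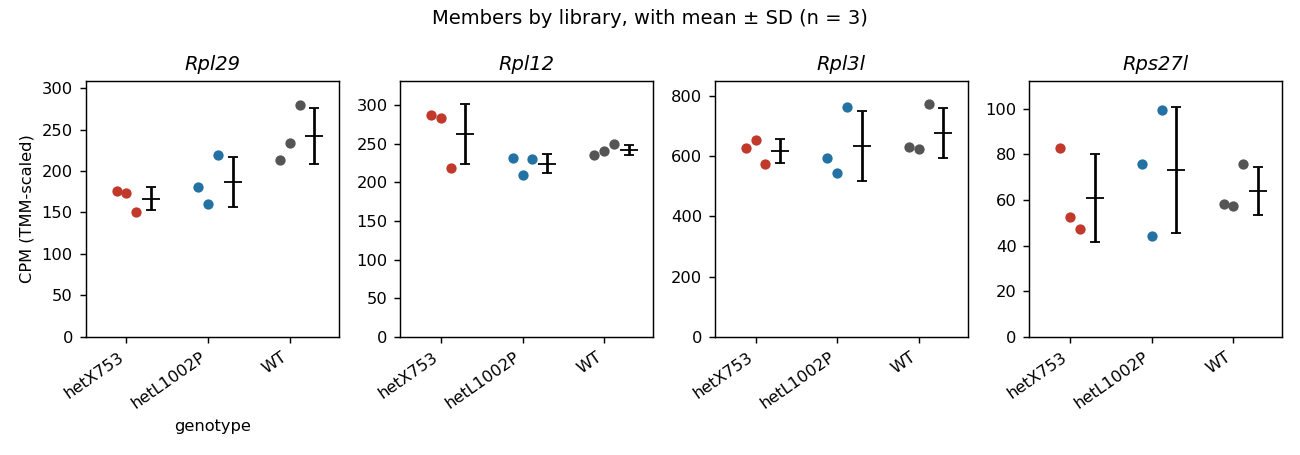
Levels of Rpl29, Rpl12, Rpl3l and Rps27l in CPM by library, with black marks for the mean ± SD of 3 libraries. The hetX753 points of Rpl29 lie at 151 to 175, below all WT points at 214 to 279, while the genotypes overlap in Rpl12, Rpl3l and Rps27l.

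Genes of other ribosomal proteins and their paralogues, whose symbols fall outside the rule, also stood below WT. The median over 7 tested genes was -0.32 in hetX753 and -0.29 in hetL1002P against WT, with 7 of 7 below 0 in each and none called. With the pseudogene Rps19-ps3, which is on the same list at 1.399 ± 0.53 CPM in hetX753, 1.21 ± 1.05 CPM in hetL1002P and 0.971 ± 0.0818 CPM in WT and stood above 0, the medians were -0.32 and -0.25. Rpl22l1, a paralogue of Rpl22, was at 30.7 ± 5.4 CPM in hetX753 and 54.5 ± 0.547 CPM in WT (SD, n = 3 each; log2 fold change -0.83, adjusted p = 0.134), and in hetL1002P at 47.5 ± 20.2 CPM. Rpl36al stood at -0.61 in hetX753 and Fau, which joins a ubiquitin-like domain to a small-subunit protein, at -0.45. The scaffold protein gene Gnb2l1, or Rack1, stood at -0.09 in hetX753 and -0.21 in hetL1002P.

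Genes that make or control ribosomes had medians nearer 0 in hetX753. Neither these lists nor those of RNA polymerase I and the mTORC1 pathway were matched to the ribosomal protein genes for transcript length. In hetX753, other genes with transcripts of 2000 to 4000 bases had a median of 0.006, and those above 4000 bases 0.21. The part of transcript length in the values of these lists was not tested. No member of these lists passed the edgeR test in any comparison. A list of translation factors with the same kind of messenger RNA start also held other such genes, among them Npm1, Tpt1 and Vim. Its median was -0.04 in hetX753, with 15 of 24 below 0, and -0.19 in hetL1002P, with 19 below 0. In hetX753 the initiation factor subunit Eif3f stood at -0.48, the muscle elongation factor Eef1a2 at -0.38 and the elongation factor subunit Eef1d at -0.46. The 38 ribosome assembly factors had medians of -0.06 and -0.14. Tsr1, an assembly factor of the small subunit, stood at 0.58 in hetX753 (21.4 ± 1.3 CPM, against 14.3 ± 2.78 CPM in WT; adjusted p = 0.133), Dkc1, the pseudouridine synthase of ribosomal RNA, at 0.30, and Nop16 at -0.49.

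The 15 genes of RNA polymerase I and its factors, which transcribe ribosomal RNA, had medians of 0.10 in hetX753 and -0.0005 in hetL1002P. Its largest subunit Polr1a stood at 0.38 in hetX753, the promoter factor Taf1c at 0.47 and the small subunit Znrd1 at -0.54. The 28 genes of the mTORC1 pathway had medians of 0.07 and 0.03. In hetX753 the kinase gene Mtor stood at 0.61 (47.5 ± 7.12 CPM, against 31 ± 6.5 CPM in WT; adjusted p = 0.123) and Rptor at 0.49. In hetL1002P Eif4ebp1, a repressor of translation that mTORC1 switches off, stood at -0.64 (44.8 ± 2.56 CPM, against 69.7 ± 23.4 CPM in WT; adjusted p = 0.579). The 77 mitochondrial ribosomal protein genes had a median of -0.31 in hetX753, with 72 below 0, and -0.22 in hetL1002P, with 74 below 0, and none was called.

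No marker of fibroblasts, macrophages, endothelium or myofibres passed the edgeR test in any comparison. At an unadjusted p under 0.05, 3 of 14 fibroblast, 2 of 11 macrophage and 8 of 16 myofibre markers were lower in hetX753 than in WT. Of the 10 endothelial markers 0 were, and of all genes 9.69%. In hetL1002P, 1 fibroblast, 1 macrophage, 4 myofibre and 3 endothelial markers were lower at that p, against 2.57% of all genes. In bulk muscle, fewer cells of a type and less RNA per cell cannot be told apart. Fibroblast markers were below WT in hetX753 in 14 of 14 genes, with a median of -0.36, but in 7 of 14 in hetL1002P, with a median of -0.01. Their summed level was 1771 to 2021 CPM in hetX753, 1481 to 2992 CPM in hetL1002P and 2105 to 2752 CPM in WT. Macrophage markers were below WT in 10 of 11 genes in hetX753 and in 5 of 11 in hetL1002P, with summed levels of 89.1 to 94.7 CPM in hetX753, 78.0 to 154 CPM in hetL1002P and 82.4 to 140 CPM in WT. The 10 endothelial markers lay on both sides of 0, with 5 below it and a median of -0.03 in hetX753, and 6 below it and a median of -0.04 in hetL1002P. The myofibre markers had medians of -0.29 in hetX753 and -0.20 in hetL1002P, with 11 of 16 below 0 in each. The part of these cells in the levels of ribosomal protein genes was not tested.

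The start regions of the ribosomal protein genes were compared with those of other genes, whatever the level or transcript length of the latter. The RefSeq windows of GRCm38.p6 ran from 250 bases before to 50 bases after the annotated start. Whether the motifs go with the fold changes was not tested. Of the 81 genes, 60 had a window, and the first listed was used for each gene. Within 50 bases of the start, on the sense strand, CTTTC occurred in 30 of 60 genes, against 12.5% of 26965 other genes. CTTTCC, which contains it, occurred in 28.3% against 4.6%, and CTCTTTCC in 6 of 60 against 0.4%. A C at the annotated start followed by 4 pyrimidines, the form of a terminal oligopyrimidine tract, was found in 12 of 60 against 2.5%. CCGGAAG, the core bound by ETS-family factors, occurred on either strand of the whole window in 24 of 60 against 9.1%, and TATAAA within 50 bases of the start in 6.7% against 3.7%. In the same 100 bases CTTTTC was in 13.3% against 3.7%. CCTTT, which can overlap CTTTC, was in 31.7% against 11.7%, and TTTCC, which can too, in 48.3% against 14.5%. A run of T alone, TTTTT, was in 6.7% against 8.5%.

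Stretches from 40 bases before to 30 bases from the start on, 5′ to 3′ on the gene's strand, are given for the genes that bracket the results: Rplp2 and Rps21, both low in hetX753, Rpl12, the highest, Rpl28, with the longer pyrimidine motif, and the muscle paralogue Rpl3l. Capitals mark CTTTC and CCGGAAG. The stretches lie at chr7:141447611-141447680 (+) for Rplp2, chr7:4792925-4792994 (+) for Rpl28, chr2:32961672-32961741 (+) for Rpl12, chr2:180257339-180257408 (+) for Rps21 and chr17:24727786-24727855 (+) for Rpl3l.
Rplp2: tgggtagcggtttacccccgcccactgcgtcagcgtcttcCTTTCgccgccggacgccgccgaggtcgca
Rpl28: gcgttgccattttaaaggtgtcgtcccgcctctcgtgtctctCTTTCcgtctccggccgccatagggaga
Rpl12: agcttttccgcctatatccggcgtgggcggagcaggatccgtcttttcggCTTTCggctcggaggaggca
Rps21: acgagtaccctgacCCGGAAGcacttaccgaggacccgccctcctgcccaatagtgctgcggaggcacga
Rpl3l: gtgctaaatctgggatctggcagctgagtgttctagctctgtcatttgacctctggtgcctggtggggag
In Rplp2 the motif begins at the annotated start base, in Rpl28 2 bases and in Rpl12 10 bases after it. The stretches of Rps21 and Rpl3l hold no CTTTC. The low Rplp2 and the higher Rpl12 both hold the motif, and Rps21, the lowest in hetX753, does not. These matches describe the letters of the windows.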

How the data were processed

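For each of 9 libraries, the deposited table holds the authors' raw counts per gene symbol. Per the labels' protocols a TruSeq RNA kit was used; it leaves strand unmarked. The submitters' processing notes list mm10, Bowtie2 2.2.6, TopHat2 2.0.14, Subread and featureCounts 1.4.6. The annotation and the handling of reads with several alignments have no mention in the sources used here. With no label tying libraries to separate animals, p-values reflect only the spread among these samples, possibly technical.

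Counts were fitted with edgeR 4.0.16 (R 4.3.3), using filterByExpr, TMM and a robust quasi-likelihood fit of genotype on all 9 libraries, with 6 residual degrees of freedom. Benjamini-Hochberg adjustment covered 12989 genes, and an adjusted p under 0.05 was called. Every adjusted p is from this test unless its passage names another tool, test or fit. Those with a replicate block or a library left out come from separate edgeR fits, adjusted over the genes each fit tested. CPM and RPKM use TMM-scaled totals and GENCODE M21 transcripts. The SE is the log2 fold change divided by the square root of F. DESeq2 1.42.0, limma-voom (limma 3.58.1) and other settings were alternatives. The test was tried on simulated data. Genes at the level of Rps27 or Rpl34 rest on few counts.

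The genes, lists and alternatives were chosen with earlier results of these data known. Named genes were the 6 with the smallest p and the 2 highest and 2 lowest fold changes per comparison, the 4 highest and lowest levels per length, the 2 most and least variable, paralogues, stalk proteins, Rpsa, untested genes, and up to 3 per list by p. Rps20, Rps14, Rpl28, Rpl11 and Gnb2l1 were added after their values were seen.

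Replicate numbers are given by the titles without a meaning. Libraries of hetL1002P and WT with the same number deviated from their genotype means together (r = 0.285, 0.36 and 0.516), above the bound of 0.1 for pairing. Of their pairs with different numbers, hetL1002P 2 with WT 1 passed that bound too (r = 0.198), and the others ran from -0.454 to 0.0558. For hetX753 with WT at the same number, r lay between -0.144 and 0.164. Pairs with different numbers also passed the bound elsewhere, such as hetX753 1 with WT 3 (0.131) and with hetL1002P 3 (0.281). A value above the bound therefore does not by itself show pairing. The libraries hetL1002P 3 and WT 3, which lie apart on the same side, may carry much of this.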

Additional observations from a re-analysis of the deposited data

How the results depend on the processing

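In hetX753 against WT the count of ribosomal protein genes called was 0, but 1 with DESeq2, and from 0 to 2 with a library left out (2 without hetL1002P 3). In hetL1002P against WT it was 0, but 27 with the replicate block on hetL1002P and WT alone, and 1 with that block without pair 3. The block changed no other call. With the length and GC trend removed, the median log2 fold change was -0.0929 in hetX753 and -0.093 in hetL1002P, with the replicate block as well -0.094 and -0.0925, and with the block on 2 genotypes alone -0.0895 in hetL1002P. Leaving out a library gave medians from -0.42 (without WT 1) to -0.19 (without WT 3) in hetX753, from -0.50 (without hetL1002P 3) to -0.17 (without WT 3) in hetL1002P, and from -0.14 (without hetL1002P 2) to 0.13 (without hetL1002P 3) between the carriers. Without the 20 highest genes in the total, the share of counts was 3.14% in hetX753, 3.13% in hetL1002P and 3.72% in WT; with the other ribosomal symbols added it was 2.12% in hetX753.

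Of 858 values of single genes under 22 settings, 44 changed sign, none past the threshold; the cause was not tested. With library totals alone, hetX753 stood at 0.0535 in Rps27l, 0.0456 in Rpl3 and 0.0103 in Rplp0. With the length and GC trend removed, and with the replicate block as well, hetX753 stood at 0.158 and 0.136 in Rps27l, 0.0800 and 0.0833 in Rpl3l, 0.12 and 0.121 in Rpl3, 0.0877 and 0.0874 in Rplp0, and 0.137 and 0.129 in Rplp1. In the same fits hetL1002P stood at 0.101 and 0.1001 in Rpl3l, 0.0268 and 0.0216 in Rpl3, 0.197 and 0.182 in Rps4l, and 0.0322 and 0.0231 in Rplp1. Rpl34 in hetL1002P stood at -0.0103 with DESeq2 size factors, -0.00644 with TMM without the members, -0.048 with DESeq2 and -0.0109 on 2 genotypes alone. Without both WT 3 and hetL1002P 3, hetX753 against WT stood at 0.0777 in Rps27l, 0.00404 in Rplp0 and 0.0159 in Rplp1, and Rps26 between the carriers at 0.047.

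With a library left out, hetX753 against WT ran from -0.358 to 0.0804 in Rps27l, -0.227 to 0.00216 in Rplp0 and -0.343 to 0.0147 in Rplp1, and Rps26 between the carriers from -0.332 to 0.0489. In hetL1002P it ran from -0.094 to 0.445 in Rps27l, -0.554 to 1.05 in Rpl34, -0.252 to 0.0119 in Rpl3l and -0.36 to 0.105 in Rps4l. The log2 ratio of Rpl3l to Rpl3 ran from -0.156 to 0.0148 (without WT 1) in hetX753 and from -0.158 (without hetL1002P 3) to 0.199 in hetL1002P, and stood there at -0.071 without WT 2.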
